A study of Nicotiana tabacum with 36 samples.

Results

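The shoot apex of tobacco at both ends of the night was covered by 6 of the 36 RNA-seq libraries of the series. The 6 libraries were chosen by tissue and time in their labels and by no rule on measured values, though earlier results were known. They were 3 shoot apex libraries harvested at ZT18, when the dark period starts, and 3 harvested at ZT0. At ZT0 the dark period ends and the light comes on. ZT (zeitgeber time) counts the hours since the lights came on. All plants were Nicotiana tabacum of cultivar K326, were 56 days old and were grown at 23 degrees under long days of 18 h light and 6 h dark. No transgene, mutation or treatment is named in the labels. By the labels both groups share the same cultivar and differ only in the time of harvest, and no batch is labelled. The whole series sampled shoot apex, whole shoot and root at ZT0, ZT6, ZT12 and ZT18, with 3 libraries in each of these groups.

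The shoot apex holds the shoot apical meristem, the dividing cells that give rise to leaves, stem and flowers, together with the youngest leaves around it. Plants time much of their gene expression to the day through light itself and through the circadian clock, a set of transcription factors that repress and activate one another so that morning and evening genes follow each other. The night between the end of the day and dawn is when starch stored in the light is broken down in leaves.

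The 6 libraries held 12081520, 11206856 and 14924432 expected counts at ZT18, against 10608197, 12773322 and 12632312 at ZT0. Expression was measured over 69500 gene models of the Nitab4.5 assembly. Of these, 16741 had no count in any of the 6 libraries. Each of the 6 libraries resembled shoot apex libraries most, with mean Pearson correlations of log2(TPM + 1) across gene models of 0.950 to 0.958 with other shoot apex libraries, 0.859 to 0.896 with whole shoot and 0.737 to 0.791 with root. Replicate 3 of ZT18 stood apart, with a mean correlation of 0.935 with the other ZT18 libraries, whereas the other 5 libraries had 0.956 to 0.972 with their own groups. Its reads also lay on longer gene models. The mean inverse length of the gene models, weighted by counts, was 0.932, 0.934 and 0.675 per kb in the ZT18 libraries, against 0.874, 0.797 and 0.979 per kb in the ZT0 libraries. In shoot apex, replicates 1 and 3 of ZT6 and replicate 1 of ZT12 were also low, at 0.696, 0.704 and 0.702 per kb. Values without replicate 3 of ZT18 are given below. The study calls the replicates biological, while the labels do not state whether they came from separate plants. The p-values of the comparison measure the spread between libraries within the 4 time groups of shoot apex, 12 libraries with those of ZT6 and ZT12.

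No gene model could be given a gene name, since none of the 69500 identifiers was found in the RefSeq gene table of tobacco used here. Gene models are therefore described by level, timing, tissue and neighbourhood, and a few are given by identifier. RSEM, the program behind the counts, divides reads between similar gene models. Tobacco is an allotetraploid with many pairs of near-identical copies, so the value of a single copy is uncertain where its partner is similar. In bulk RNA, fewer cells of a type and less RNA per cell cannot be told apart.

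Shoot apices at ZT18 differed from those at ZT0 in a small set of gene models that was mostly lower at ZT18. Of 39368 gene models with enough reads to test, 492 (1.25%) had an adjusted p under 0.05 in edgeR's quasi-likelihood test, with p-values adjusted by Benjamini-Hochberg. Of these, 129 gene models (0.328%) were higher and 363 (0.922%) were lower at ZT18. At an unadjusted p under 0.05 there were 3329. The gene models that were lower at ZT18 made up 73.8% of the calls, and those that were higher made up 26.2%. With limma on log2(TPM + 0.1) the split was closer, at 170 higher and 264 lower, or 39.2% higher. The scaling differs between these fits. The median gene model had a log2 fold change of 0.03 in the fit of counts and of 0.20 with limma on log2(TPM + 0.1). Fold changes below are from the fit of counts unless stated otherwise.

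**Figure D1:**
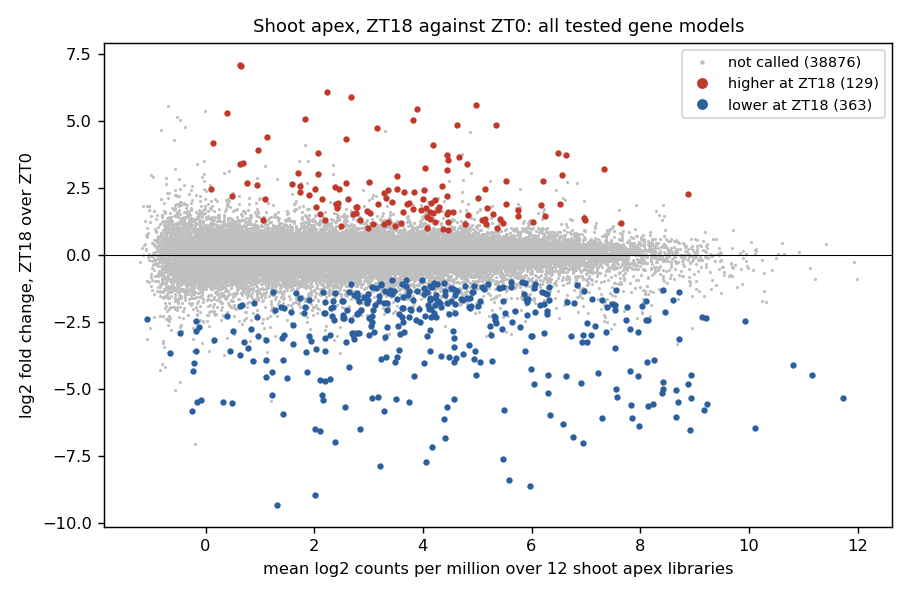
Log2 fold change of ZT18 over ZT0 in shoot apex (vertical axis) against the mean log2 CPM, counts scaled to library size, over the 12 shoot apex libraries (horizontal axis), 1 point for each of the 39368 tested gene models. Red points are the 129 gene models higher at ZT18 and blue points the 363 lower at ZT18 (adjusted p under 0.05); the blue points reach further from 0 and further to the right.

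The changes at ZT18 were large where they were called. The 129 gene models that were higher had a median log2 fold change of 2.02, with quartiles of 1.51 and 2.93 and a range of 0.92 to 7.08. The 363 that were lower had a median of -2.40, with quartiles of -3.90 and -1.72 and a range of -9.34 to -0.94. These sizes describe gene models chosen by the same test, and over all tested gene models the median size of the log2 fold change was 0.25. Changes of at least 5 log2 units were found for 9 of the gene models that were higher and for 56 of those that were lower.

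The set that was lower at ZT18 reached the higher levels, in its ZT0 libraries. Its median TPM, a level scaled for gene model length and library size, was 5.78 at ZT18 and 26.8 at ZT0, and 89 of its 363 gene models exceeded 100 TPM at ZT0. The set that was higher had a median of 10.3 TPM at ZT18 and 2.05 TPM at ZT0, and 4 of its 129 gene models exceeded 100 TPM at ZT18. In the group where they were low, 39 of the 129 were under 1 TPM at ZT0 and 66 of the 363 were under 1 TPM at ZT18. Gene models listed at 0 in a whole group were few, at 2 in the ZT0 libraries and 2 in the ZT18 libraries.

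Replicates separated cleanly for nearly all called gene models. All 129 that were higher had their 3 ZT18 libraries above their 3 ZT0 libraries in TPM, which held for 9.95% of all tested gene models. Of the 363 that were lower, 350 had all ZT18 libraries below all ZT0 libraries, against 3.44% of all tested gene models, and the groups of the other 13 overlapped. The test itself selects for such separation, so these counts only describe the calls. The median length of both sets was 1257 bases, against 1197 bases for all tested gene models.

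The precision of the comparison limits what the uncalled gene models show. The median standard error of the log2 fold change was 0.37. For 15734 gene models (40.0%) the 95% confidence interval lay within 1 log2 unit of 0 on both sides, so that a change larger than 2-fold was outside the interval. For the rest such a change was not excluded by the interval. In counts simulated for this comparison, the test recovered 54 of 100 gene models changed by 2 log2 units and 5 of 100 changed by 1. Of its 69 calls there, 10 were false (14.5%). These counts were drawn only once, with a spread set by the level of each gene model alone. They held no differences at ZT6 or ZT12 and no difference in length index between libraries. The recovered and false shares therefore describe that draw, not the power or error rate in the real libraries.

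The 4 gene models taken by rule show the pattern library by library. Nitab4.5_0029285g0010.1, a gene model of 1142 bases, had 0.08, 0.17 and 0.33 TPM at ZT18, against 52.1, 43.2 and 100.7 TPM at ZT0. All 3 ZT18 libraries were near 0 and far below every ZT0 library. It had the most negative log2 fold change among the well expressed gene models that met the rule, -8.65 ± 0.67 (SE), with an adjusted p of 4.8e-05 in edgeR's quasi-likelihood test. Its counts were 7 over the ZT18 libraries and 2503 over the ZT0 libraries, a ratio of 415 for ZT0 over ZT18 per read sequenced (95% interval 201 to 1033, counting error only).

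Nitab4.5_0000592g0280.1, of 1551 bases, showed the largest drop in TPM. It had 77.7, 71.3 and 59.0 TPM at ZT18, against 2056, 2110 and 3188 TPM at ZT0. The groups did not overlap, and replicate 3 of ZT0 stood above the other ZT0 libraries. Its log2 fold change was -5.34 ± 0.63 (SE), with an adjusted p of 0.00119 in edgeR's quasi-likelihood test. Its highest level fell in the day, with 5303, 9724 and 4956 TPM at ZT6 and 1098, 1099 and 721 TPM at ZT12.

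Nitab4.5_0000640g0150.1, a short gene model of 315 bases, had 6.50, 6.35 and 20.95 TPM at ZT18, against 0, 0.33 and 0 TPM at ZT0. Its ZT18 libraries were all above its ZT0 libraries, and replicate 3, which stood apart in length index, was the highest. The counts were 105 over the ZT18 libraries and 1 over the ZT0 libraries, a ratio of 90.5 for ZT18 over ZT0 per read sequenced (95% interval 15.9 to 3609, counting error only). Its fitted log2 fold change was 6.08 ± 0.91 (SE) with an adjusted p of 0.00269 in edgeR's quasi-likelihood test, and that fold rests on a single ZT0 read.

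Nitab4.5_0008414g0050.1, of 766 bases, had the largest gain in TPM. It had 282.4, 61.1 and 176.6 TPM at ZT18, against 20.1, 8.94 and 19.6 TPM at ZT0. The groups did not overlap, but the ZT18 libraries spread widely, with replicate 2 the lowest. Its log2 fold change was 3.20 ± 0.57 (SE), with an adjusted p of 0.0167 in edgeR's quasi-likelihood test. That call was lost under 3 of 21 alternatives, with an adjusted p in the same edgeR test of 0.114 in the 6 libraries alone, 0.0908 without replicate 1 of ZT0 and 0.0816 without replicate 2 of ZT0.

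**Figure D2:**
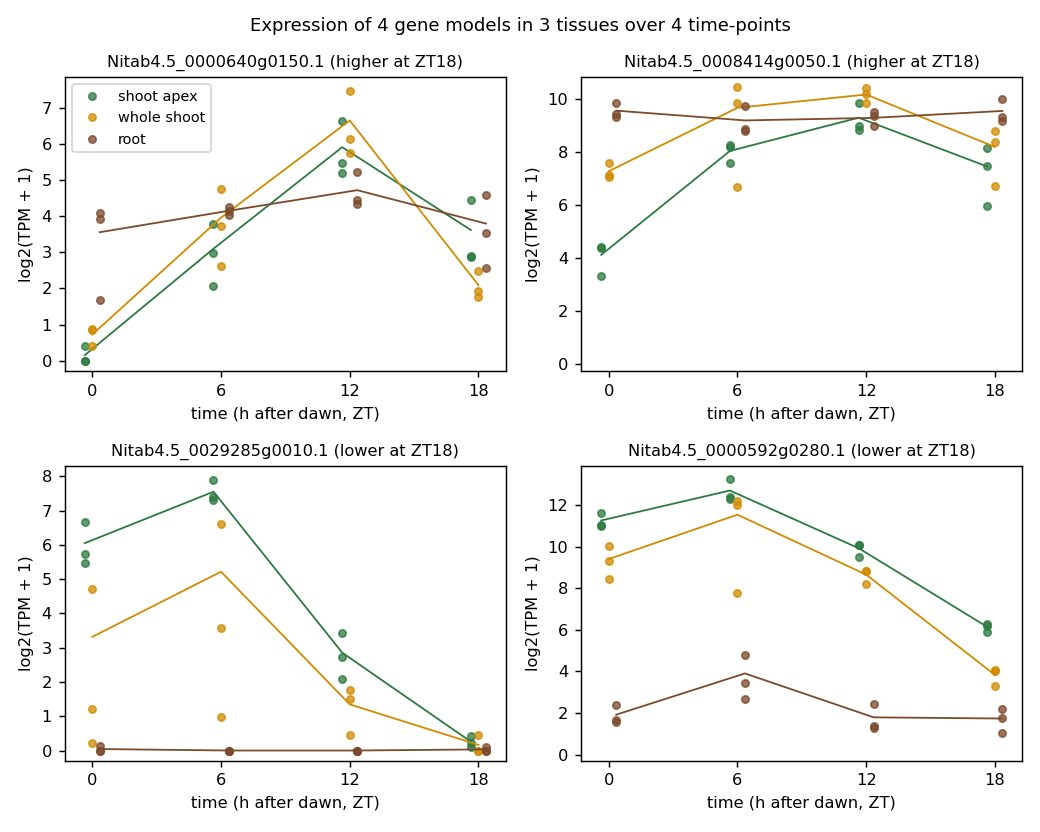
Level of 4 gene models as log2(TPM + 1) (vertical axis) against time of harvest in hours after dawn (horizontal axis) in shoot apex (green), whole shoot (orange) and root (brown); points are libraries, lines join the log2 of the mean TPM plus 1, and tissues are offset sideways. In shoot apex both upper gene models are lowest at ZT0 and highest at ZT12, and both lower ones are highest at ZT6 and lowest at ZT18.

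Summed over the 363 gene models that were lower at ZT18, the libraries spent 0.644% to 0.775% of their TPM on them at ZT18, against 4.29% to 4.93% at ZT0. The 10 most abundant made up 29.6% of that sum at ZT0. Over ZT0, ZT6, ZT12 and ZT18 the summed share was 4.59% ± 0.32, 6.43% ± 2.02, 1.32% ± 0.25 and 0.699% ± 0.068 (SD, n = 3 each). The set was high at the end of the night and in the morning, and was already low at ZT12, before dark.

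The 129 gene models that were higher at ZT18 took 0.229% to 0.291% of TPM at ZT18, against 0.0541% to 0.0637% at ZT0. Over ZT0, ZT6, ZT12 and ZT18 their share was 0.0593% ± 0.0048, 0.278% ± 0.017, 0.689% ± 0.078 and 0.266% ± 0.033 (SD, n = 3 each). They were highest at ZT12, in the light, and lower again when the night began. The 10 most abundant made up 39.5% of the sum at ZT18.

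**Figure D3:**
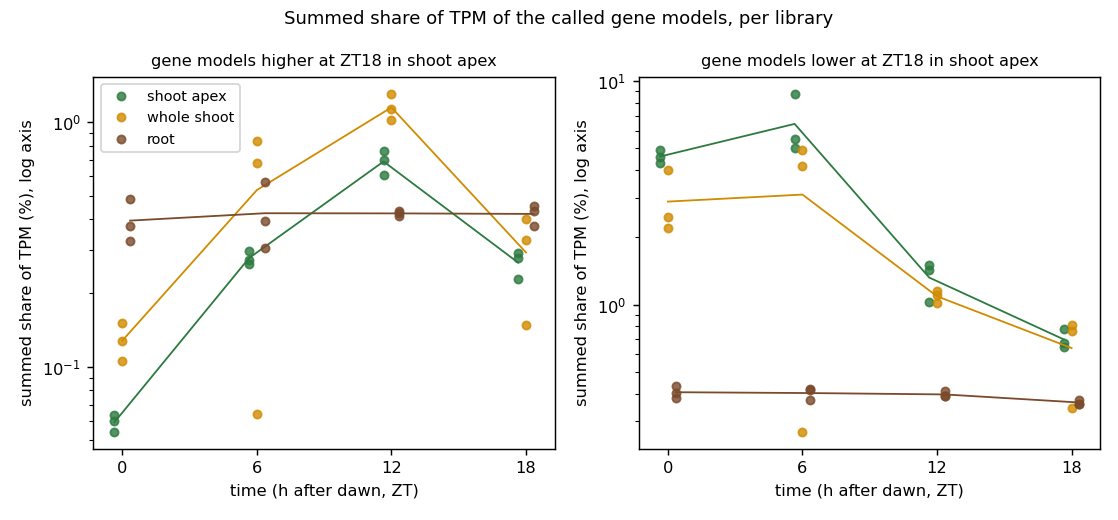
Summed share of TPM in percent (vertical, log axis) against time of harvest in hours after dawn (horizontal axis) for the gene models higher (left) and lower (right) at ZT18 in shoot apex; points are libraries and lines join the means of shoot apex (green), whole shoot (orange) and root (brown). In shoot apex the left set goes through 0.0593%, 0.278%, 0.689% and 0.266% from ZT0 to ZT18 and the right set through 4.59%, 6.43%, 1.32% and 0.699%, whereas the root means of both sets lie between 0.365% and 0.423%.

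Timed one by one, the gene models fell into 3 main profiles in shoot apex. ZT12 was the time of the highest mean TPM for 114 of the 129 gene models that were higher at ZT18 (88.4%, against 26.5% of all tested gene models). ZT0 was the lowest time for 118 of them (91.5%, against 51.6%). The medians of the 114 over ZT0, ZT6, ZT12 and ZT18 were 2.19, 10.01, 27.3 and 11.8 TPM. Of the others, 11 were highest at ZT6. Only 4 were highest at ZT18 itself, with 5.75 to 15.1 TPM at ZT18 and 0.347 to 6.01 TPM at ZT0.

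The 363 gene models that were lower at ZT18 had a pair of profiles. ZT0 was the highest time for 251 (69.1%, against 15.3% of all tested gene models), with medians of 25.7, 12.0, 5.30 and 6.24 TPM in the order of the times. ZT6 was the highest time for 110 (30.3%, against 36.8% of all), with medians of 35.9, 71.6, 12.1 and 3.92 TPM. The remaining 2 were highest at ZT12. The profiles also differed in their lowest time. Most of the 251 were lowest at ZT12 (167 of 251), and most of the 110 were lowest at ZT18 (95 of 110). Although fewer, the 110 took 5.36% of TPM at ZT6, against 1.06% for the 251. As the ZT18 and ZT0 libraries both chose the gene models and enter these profiles, the shares describe the sets and test nothing.

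The other comparisons within shoot apex use some of the same libraries, so their values are given side by side only. In ZT12 against ZT0, 1708 gene models (4.34%) were called, 1.85% higher and 2.49% lower. Here the set higher at ZT18 had a median log2 fold change of 2.86, with 127 of 129 higher, and the set lower at ZT18 a median of -2.27, with 294 of 363 lower and 1 higher. In ZT6 against ZT0, 822 (2.09%) were called, 1.17% higher and 0.914% lower. The medians were 1.68, with 75 of 129 higher, and -0.81, with 113 of 363 lower and 14 higher.

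Fewer gene models were called between ZT18 and ZT12 than between ZT18 and ZT0. In ZT18 against ZT12, 102 gene models (0.259%) were called, 0.061% higher and 0.198% lower. The set higher at ZT18 had a median of -0.87, with 21 of 129 lower and 2 higher, and the set lower at ZT18 a median of 0.07, with 33 of 363 lower and 11 higher. In ZT18 against ZT6, 408 (1.04%) were called, 0.325% higher and 0.711% lower. The medians were 0.26, with 28 of 129 higher and 7 lower, and -1.37, with 158 of 363 lower and 2 higher. These comparisons share the ZT0 or the ZT18 libraries with the one that chose the gene models.

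Whole shoot shares no library with shoot apex. Neither the sample titles nor the study say whether the whole shoot samples included the apex, so the tissue itself may overlap. Its own comparison of ZT18 with ZT0 called 605 of 39400 gene models (1.54%), 266 higher (0.675%) and 339 lower (0.86%). Of the 492 gene models called in shoot apex, 484 were tested in whole shoot and 476 had the same sign (98.3%, against 59.8% of 37429 gene models tested in both tissues). Among those higher in shoot apex, 59 of 128 were also called higher in whole shoot, and among those lower, 198 of 356 were also called lower. None was called in the opposite direction. The median log2 fold changes in shoot apex and whole shoot were 1.99 and 1.56 for the first set and -2.37 and -1.83 for the second. Since the gene models were chosen in shoot apex, the larger sizes there are no test of a difference between the tissues.

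Across the 484 gene models, Pearson's r of the log2 fold changes in shoot apex and whole shoot was 0.92, against 0.41 over all gene models tested in both. Gene models are not independent replicates, and the choice of strongly changed ones in both directions widens the range. Replicate 2 of whole shoot at ZT18 had a low share of mapped reads, and its summed share of the set higher at ZT18 was 0.148%, which lay within the whole shoot range of 0.106% to 0.151% at ZT0. Without the whole shoot libraries of low mapped share, the same sign was found for 124 of 128 and 348 of 358 gene models, with medians of 1.58 and -1.74. The same-sign share over all gene models was not taken for that fit. Its calls in whole shoot numbered 454, against 605 with all libraries. Of the 2 sets, 49 and 142 gene models were then also called in the same direction, against 59 and 198 with all libraries.

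The timing over the day was also shared with whole shoot. Of the 114 gene models that were highest at ZT12 in shoot apex, 107 were highest at ZT12 in whole shoot (93.9%, against 58.4% of all tested gene models with that shoot apex peak). Of the 251 that were highest at ZT0, 238 were highest at ZT0 in whole shoot (94.8%, against 64.1%). Of the 110 that were highest at ZT6, 76 were highest at ZT6 in whole shoot (69.1%, against 6.97%). Replicate 1 of whole shoot at ZT6 had a low share of mapped reads. Without the libraries of low mapped share the figures were 83.3% (against 40.6%), 87.3% (against 48.7%) and 83.6% (against 49.5%).

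In root the same gene models lay near 0 on the log2 scale between ZT18 and ZT0. Replicate 2 of root at ZT18 is listed with a low share of mapped reads, yet its deposited file holds 13332241 counts, whereas the other 4 listed libraries hold 4125090 to 7447374 and the libraries not listed at least 10608197. Only 2 of 40475 gene models were called in root by edgeR's quasi-likelihood test (0.00494%), both lower at ZT18, and 1561 had an unadjusted p under 0.05. The gene models from shoot apex had median log2 fold changes of 0.24 and -0.22 in root for the sets higher and lower at ZT18. The sign was the same for 251 of the 374 that were tested in root (67.1%, against 51.8% of all). The set lower at ZT18 was also weakly expressed in root, where 120 of 363 had a mean of less than 1 TPM (33.1%, against 9.74% of all tested gene models). The set higher at ZT18 was less so, with 16 of 129 (12.4%).

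The summed shares of TPM in root differed far less between the times than in shoot apex. For the set lower at ZT18, root libraries held 0.365% ± 0.009 at ZT18, against 0.406% ± 0.024 at ZT0 (SD, n = 3 each), and the libraries of the 2 times did not overlap. For the set higher at ZT18, they held 0.421% ± 0.040 at ZT18, against 0.395% ± 0.080 at ZT0, a difference smaller than the spread. The level of this set in root was above that of shoot apex at ZT18 and ZT0, and the root means of the 4 times lay between 0.395% and 0.423%.

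**Figure D4:**
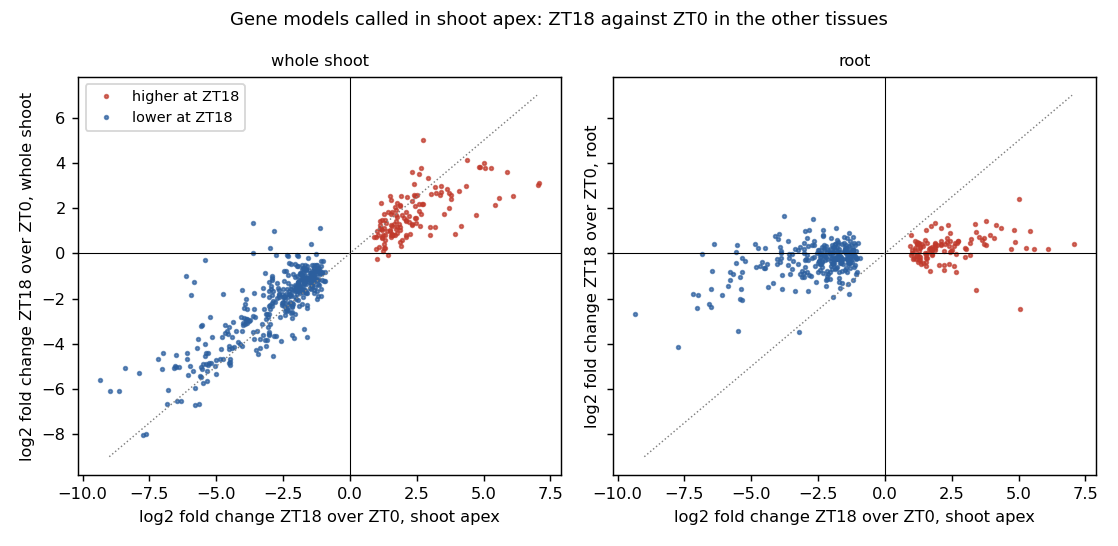
Log2 fold change of ZT18 over ZT0 in whole shoot (left) and root (right), vertical axes, against that in shoot apex, horizontal axes, for the gene models called in shoot apex and tested in the other tissue; red is higher and blue lower at ZT18 in shoot apex, and the dotted line marks equal changes. Whole shoot lies near the line (476 of 484 with the same sign) and root lies close to 0 (medians of 0.24 and -0.22).

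The difference between tissues was tested directly in a fit of all 36 libraries with 44594 gene models. The change of ZT18 against ZT0 differed between shoot apex and root for 202 gene models (0.453%), of which 56 (0.126%) had the more positive and 146 (0.327%) the more negative change in shoot apex, by edgeR's quasi-likelihood test, adjusted likewise over all 44594. Of the gene models called in shoot apex, 45 of 129 and 120 of 363 were among them, although these were chosen on the same shoot apex libraries. The 202 became 126 without all 5 libraries listed with a low mapped share, 191 when replicate 2 of root at ZT18 was kept, and 58 in the 12 libraries of both tissues at ZT18 and ZT0 alone. Between shoot apex and whole shoot the change differed for 2 gene models (0.00448%), and 1791 had an unadjusted p under 0.05. A missed threshold does not show that the other gene models changed alike in shoot apex and whole shoot.

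Both gene models that differed between shoot apex and whole shoot were higher at ZT18 in both tissues, and they are named here because their count is small, after their values had been seen. Nitab4.5_0000198g0120.1 had 9.29, 7.26 and 14.4 TPM at ZT18 in shoot apex, against 0.18, 0.30 and 0.11 TPM at ZT0. In whole shoot it had 6.30, 6.20 and 6.07 TPM at ZT18, against 1.11, 2.38 and 1.11 TPM at ZT0. As a ratio of TPM, the tissues differed more at ZT0 than at ZT18, and the groups did not overlap in either tissue. The ZT0 level in shoot apex rests on few reads, with expected counts of 3, 5.43 and 2.33. The log2 fold change was 5.57 in shoot apex and 2.43 in whole shoot, and the difference was 3.17 ± 0.51 (SE), with an adjusted p of 0.0362 in edgeR's quasi-likelihood test.

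Nitab4.5_0000640g0140.1 had 11.1, 9.62 and 7.09 TPM at ZT18 in shoot apex, against 0.17, 0.41 and 0.22 TPM at ZT0. In whole shoot it had 4.76, 3.58 and 3.98 TPM at ZT18, against 1.38, 2.61 and 0.81 TPM at ZT0. Again the ZT0 level in shoot apex was the lowest, with expected counts of only 1, 2.57 and 1.67. The difference between the tissues was 3.07 ± 0.51 (SE), with an adjusted p of 0.0362 in edgeR's quasi-likelihood test. Neither difference passed the threshold when only the 12 libraries of both tissues at ZT18 and ZT0 were fitted, nor without replicate 1 of ZT18 and without replicate 1 or replicate 3 of ZT0, where no gene model was called. Nitab4.5_0000640g0140.1 was also lost without replicate 2 of ZT18 (adjusted p of 0.12 in the same edgeR test) and without the libraries listed with a low mapped share (0.101, or 0.0759 when replicate 2 of root at ZT18 was kept). Both gene models were highest at ZT12 in shoot apex and whole shoot, at 49.3 to 109.9 TPM in shoot apex.

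Both gene models called in root were lower at ZT18 in all 3 tissues, and are also named after their values had been seen. Nitab4.5_0007792g0010.1 had 1.06, 2.37 and 2.97 TPM at ZT18 in shoot apex, against 267.1, 296.6 and 153.8 TPM at ZT0. In root it had 5.43, 4.25 and 4.35 TPM at ZT18, against 17.8, 19.4 and 37.4 TPM at ZT0. The groups did not overlap in either tissue, and the log2 fold change was -7.01 in shoot apex and -2.43 in root.

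Nitab4.5_0002838g0050.1 had 0.58, 0.49 and 1.01 TPM at ZT18 in shoot apex, against 22.8, 32.3 and 25.1 TPM at ZT0. In root it had 0.58, 0.53 and 0.38 TPM at ZT18, against 3.51, 4.80 and 7.63 TPM at ZT0. The ZT18 levels of shoot apex and root were alike and the ZT0 level was higher in shoot apex. The log2 fold change was -5.49 in shoot apex and -3.46 in root. In root both had an adjusted p of 0.0192 in edgeR's quasi-likelihood test, and neither was called there without the root libraries listed with a low mapped share, with log2 fold changes of -3.57 for Nitab4.5_0002838g0050.1 and -2.43 for Nitab4.5_0007792g0010.1. With replicate 2 of root at ZT18 kept and only the listed ZT6 libraries left out, the adjusted p was 0.107 and 0.152 in the same edgeR test.

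Of the 4 gene models chosen by rule, 3 had root libraries of ZT18 and ZT0 that overlapped, and the other was near 0 in root. Nitab4.5_0008414g0050.1 had 579.7, 635.4 and 1028 TPM in root at ZT18, against 697.5, 920.1 and 643.2 TPM at ZT0, so that its shoot apex level at ZT0 was well below its root level. Nitab4.5_0000592g0280.1 had 1.06, 3.56 and 2.35 TPM in root at ZT18, against 1.93, 2.18 and 4.23 TPM at ZT0. Nitab4.5_0029285g0010.1 was at or below 0.09 TPM in every root library at every time. Nitab4.5_0000640g0150.1 had 23.1, 4.94 and 10.6 TPM in root at ZT18, against 2.18, 16.0 and 14.1 TPM at ZT0.

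In whole shoot, Nitab4.5_0000592g0280.1 had 15.7, 15.1 and 8.97 TPM at ZT18, against 352.7, 639.6 and 1037 TPM at ZT0. Its log2 fold change there was -5.19, with an adjusted p of 0.00243 in edgeR's quasi-likelihood test. Nitab4.5_0029285g0010.1 had 0, 0.36 and 0 TPM in whole shoot at ZT18, against 0.17, 1.32 and 25.4 TPM at ZT0. These overlapped and did not pass the test, with an adjusted p of 0.259 in edgeR's quasi-likelihood test. For Nitab4.5_0008414g0050.1 the log2 fold change was 1.16 in whole shoot, which did not pass either (adjusted p of 0.248 in the same edgeR test), and for Nitab4.5_0000640g0150.1 it was 2.54 (adjusted p of 0.0402 in the same edgeR test).

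Most called gene models were the only call on their scaffold, while a few scaffolds held several. The 492 calls lay on 440 scaffolds, of which 401 held 1 call, 31 held 2 and 8 held 3 or more. Among 21203 pairs of tested gene models next to each other on a scaffold, 17 pairs were called in the same direction, 15 of them lower and 2 higher at ZT18, and none in opposite directions, whereas 493 pairs had 1 called member. Over all tested gene models, 0.922% were called lower and 0.328% higher. Whether neighbours were called together more often than these shares alone would give was not tested. The scaffold of Nitab4.5_0000592g0280.1 held the most calls. Of its 47 gene models 21 were tested and 7 were lower at ZT18, with log2 fold changes of -5.98 to -4.84, and all 7 were highest at ZT6. These 7 gene models took 0.0135% of TPM at ZT18, against 0.499% at ZT0. How much of this comes from reads shared between similar neighbouring copies was not tested. On the scaffold of Nitab4.5_0000640g0150.1, 2 of 6 tested gene models were higher at ZT18, and the other is Nitab4.5_0000640g0140.1.

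Gene model length moved with the comparison over all gene models. From the shortest to the longest quartile of length, the median log2 fold change of ZT18 over ZT0 was -0.02, -0.02, 0.02 and 0.14. Without replicate 3 of ZT18 the order turned, with 0.15, 0.09, -0.05 and -0.23. With the length index of each library as a covariate the medians were 0.03, 0.01, -0.02 and -0.04. The fit without replicate 3 of ZT18 called 107 gene models higher and 277 lower, including 353 of the 492. The fit with the covariate called 745 higher and 1488 lower, including all 492. Medians over quartiles do not show how far length moved single gene models, which was not tested.

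The number of calls moved between the alternatives, while each of the 492 calls kept its sign under every alternative that tested it. All alternatives reuse most of the same ZT18 and ZT0 libraries, in which the calls were chosen for clear changes. A kept sign was therefore favoured in advance. The alternative with a log2 fold change of at least 1 only filters the reported fit. In a fit of the 6 libraries alone, 35 gene models were higher and 201 lower, 232 of them among the 492. With the length index as a covariate, 745 were higher and 1488 lower, including all 492. With DESeq2 there were 1104 calls, 29.5% of them higher and 778 lower, including 488 of the 492. In each of these fits more gene models were lower than higher at ZT18.

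**Figure D5:**
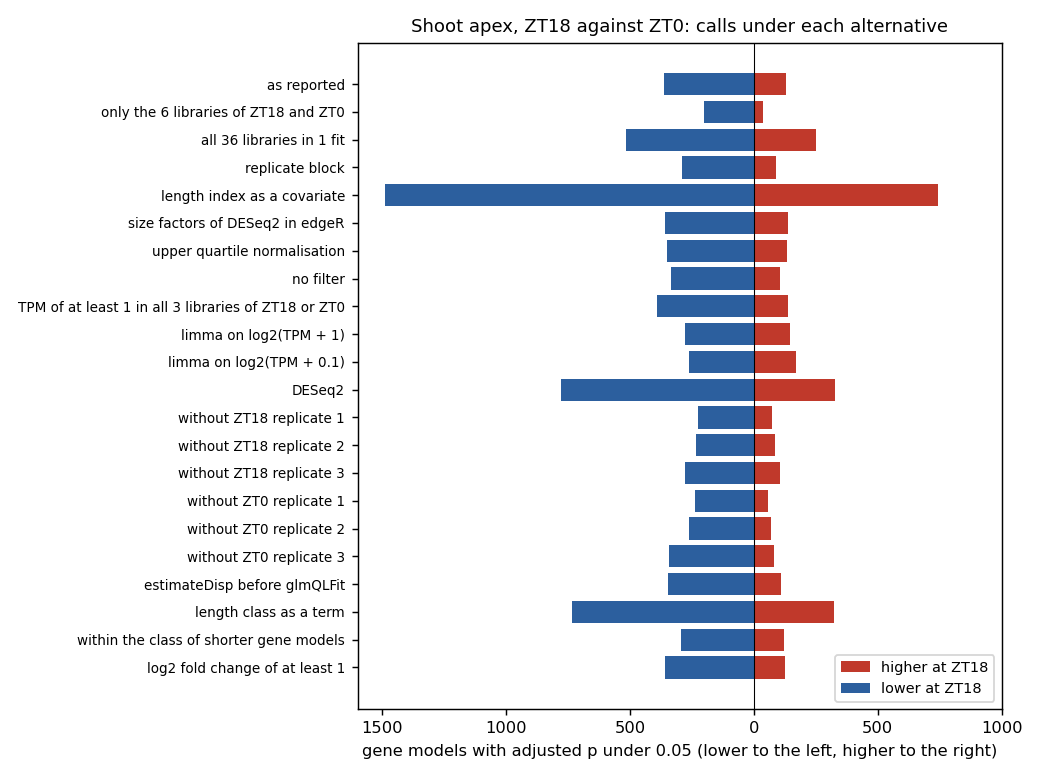
Number of gene models with an adjusted p under 0.05 in shoot apex, lower (blue, to the left) and higher (red, to the right) at ZT18 than at ZT0, for the reported fit and 21 alternatives, 1 bar for each. Blue bars are the longer ones in every case, from 201 against 35 with the 6 libraries alone to 1488 against 745 with the length index as a covariate.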

How the data were processed

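Total RNA was used for random primed cDNA libraries, sequenced as single reads of 100 bases. According to the labels and the study's methods, the authors trimmed the reads, mapped them with Bowtie 1.1.0 to the predicted Nitab4.5 gene models and quantified these with RSEM 1.2.7 (CASAVA 1.9.4 is also listed). The deposited files hold expected counts, estimated by RSEM and not normalised, and TPM, scaled by the authors for length and library size. A further deposited table, whose name says TPM, repeats the expected counts of every library (largest difference 0.0) and was not used. No pair of libraries was identical (0 pairs).

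Expected counts were rounded and tested with edgeR 4.0.16 (R 4.3.3), with TMM normalisation, filterByExpr (minimum count 10, minimum total count 15), glmQLFit with legacy = FALSE and glmQLFTest, on the 12 shoot apex libraries as 4 groups, which share an estimate of the spread. This form of glmQLFit was chosen after it and the form preceded by estimateDisp had both been run. P-values were adjusted by Benjamini-Hochberg over all tested gene models, with a threshold of 0.05. Whole shoot and root were fitted likewise, and differences between tissues in 1 fit of 36 libraries. The exact permutation test of 3 libraries against 3 cannot give a p below 0.1 and was not used. The test was tested on simulated data, where it made 69 calls, of which 10 (14.5%) were false. These negative binomial counts were drawn once, around the same mean in all 12 libraries except for changes set at ZT18. Their spread followed the trend of spread with level, without a value for each gene model.

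Without gene names, 2 gene models a direction were named: the one with the largest log2 fold change among calls with non-overlapping TPM and a mean of at least 10 TPM in the higher group, and the one with the largest TPM difference among calls with non-overlapping TPM and a log2 fold change of at least 1. The libraries and rules were chosen with earlier results of these data known. Alternatives were DESeq2 1.42.0, limma 3.58.1 on TPM with pseudocounts of 1 and 0.1, other normalisations, filters, fits and covariates, and each replicate left out. Further ones were chosen after seeing the data: estimateDisp before glmQLFit, 2 classes of libraries, split at the widest gap in length index, as a term, and the libraries of 1 such class. The libraries listed in the study's quality metrics with a low mapped share, 3 of root and 2 of whole shoot, were left out in some alternatives. The deposited total of replicate 2 of root at ZT18 does not match that listing, so an alternative that keeps it was added after seeing the data. Read depth is given by the total of the counts in each library. Intervals on count ratios cover counting error only.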

Additional observations from a re-analysis of the deposited data

Results flagged for a closer look

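The change of ZT18 against ZT0 differed between shoot apex and root, by the test of the difference in the fit of 36 libraries, for 202 gene models, and between shoot apex and whole shoot for 2. Among the gene models named by rule, Nitab4.5_0000640g0150.1 differed from root by 5.88 log2 units (adjusted p of 0.0046 in edgeR's quasi-likelihood test, log2 fold change of 6.08 in shoot apex and 0.18 in root). Nitab4.5_0008414g0050.1 differed from root by 3.27 log2 units (adjusted p of 0.00875 in the same edgeR test, 3.20 in shoot apex and -0.05 in root). Nitab4.5_0000592g0280.1 differed from root by -5.11 log2 units (adjusted p of 0.00377 in the same edgeR test, -5.34 in shoot apex and -0.21 in root). In each of these 3 gene models all ZT18 libraries of shoot apex lay on one side of all ZT0 libraries, while the root libraries of both times overlapped. The remaining gene model named by rule, Nitab4.5_0029285g0010.1, differed by -8.56 ± 4.32 (SE) log2 units and did not pass (adjusted p of 0.856 in the same edgeR test). All were named for a large, non-overlapping change in the same shoot apex libraries, so a large difference from root was favoured in advance.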

How the results depend on the processing

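None of the 492 calls changed sign in those of the 21 alternatives that tested it, which was favoured in advance by the libraries that they share. The number of calls (492, with 129 higher and 363 lower at ZT18) moved to 236 (35 and 201) in the 6 libraries alone, to 768 (252 higher) in all 36, to 2233 (745 and 1488) with the length index as a covariate, to 1104 (778 lower, the rest, 3.3e+02 when rounded, higher) with DESeq2 and to 1061 (325 and 736) with the length class as a term; the cause was not tested. Leaving out 1 replicate gave 296 to 425 calls, 58 to 107 higher and 225 to 343 lower. The number higher was 72 without replicate 1 of ZT18 and 58, 69 and 82 without replicates 1, 2 and 3 of ZT0, and the number lower was 225 and 235 without replicates 1 and 2 of ZT18 and 238 without replicate 1 of ZT0. The other alternatives gave 379 to 529 calls. The gene models that differed between shoot apex and whole shoot (2) numbered 0 in the 12 libraries of ZT18 and ZT0 alone, 4 without the libraries of low mapped share (4 also when replicate 2 of root at ZT18 was kept) and 0 to 4 with 1 replicate left out. Those that differed between shoot apex and root (202) numbered 58, 126 and 139 to 200 in the same order. The same-sign share was 97.1% to 99.1% in whole shoot and 65.2% to 71.4% in root under all alternatives.

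Same-numbered ZT18 and ZT0 libraries did not deviate together (correlations of 0.18, -0.48 and -0.76). Replicate 3 of ZT18 and replicate 2 of ZT0, the libraries with the lowest length index in their groups, had a correlation of 0.72. With such differences between libraries, the check cannot show whether the replicate numbers pair these samples. In whole shoot the correlations were -0.55 to 0.08 and in root -0.77 to -0.34, and between shoot apex and the other tissues at one time they were -0.61 to 0.47, with values below 0 in every comparison. With the replicate block there were 379 calls, 89 higher and 290 lower, and 3 and 178 gene models differed between shoot apex and whole shoot or root. Both root calls were lost with the block (adjusted p of 0.0885 each in edgeR's quasi-likelihood test). Gene models of low count, and changes near 1 log2 unit, are those that this depth with 3 libraries a group leaves least certain.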
